A study of Rattus norvegicus with 35 samples.

Results

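Tamoxifen and anastrozole are both given against estrogen-dependent breast cancer, and here they were compared in the hippocampus of rats without ovaries. The 5 libraries labelled OVX+Tamoxifen were set against the 5 labelled OVX+Anastrozole, 10 of the 35 RNA-sequencing libraries of the series, and the group labels alone chose them. All 10 came from female Sprague Dawley rats ovariectomised (OVX) at 6 months of age. After 2 weeks without treatment the rats received daily intraperitoneal injections of tamoxifen at 3.23 mg/kg or of anastrozole at 4.03 mg/kg, and tissue was taken at 7 days. The 5 OVX+Vehicle libraries, from ovariectomised rats given vehicle, are shown beside them.

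The doses were scaled from human use and differ, so a difference below is between 2 drugs at those doses. The labels give anastrozole a far higher dose than exemestane, the other aromatase inhibitor of the series, which is the reverse of their clinical order; whether these labels were exchanged was not tested. The labels do not tie a library to a named animal, so p-values measure the spread between these libraries.

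The drugs act at different points of 1 hormone pathway. Aromatase, the product of Cyp19a1, turns androgens into estrogens in the ovary, in fat and also in neurons of the hippocampus, and estrogens then act through the nuclear receptors Esr1 and Esr2 and the membrane receptor Gper1. Anastrozole, a triazole without a steroid skeleton, blocks aromatase and so lowers estrogen made outside the ovary as well. Tamoxifen, a triphenylethylene, binds the estrogen receptors and acts as antagonist or partial agonist according to tissue, and it also binds sterol-converting enzymes such as Ebp. Estrogens in the hippocampus are known for effects on dendritic spines, on glutamate receptors and on mitochondria.

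Hippocampal genes were present in all 10 libraries. The dentate granule cell factor Prox1 stood between 107 and 164 CPM (counts per M counts of the library, M for mega), and the CA1 gene Wfs1 between 259 and 426 CPM. Choroid plexus, the tissue of the adjoining ventricle, gave uneven levels. Ttr, the defining transcript of choroid plexus, was at 4.33, 2770, 1.91, 1425 and 0.495 CPM in the tamoxifen libraries, against 4.03, 1896, 10.8, 2314 and 832 CPM in the anastrozole libraries. It was high in 2 tamoxifen and 3 anastrozole libraries. Tamoxifen library 2 also stood apart for mural and meningeal genes, whose mean level was 4.61 on the log2 CPM scale against 2.56 to 3.22 in the other tamoxifen libraries and 3.13 to 3.79 in the anastrozole libraries. Totals were 6.06 M to 10.3 M counts with tamoxifen and 7.03 M to 12.1 M with anastrozole. Libraries also fell into 2 classes by the share of counts on Rn7sl1, the RNA component of the particle that recognises signal peptides. That share was 4.47% to 6.49% in 20 libraries of the series and 2.9% to 3.84% in the other 15. Tamoxifen had 2 libraries of high share and 3 of low share, against 3 and 2 for anastrozole. The classes differed at 7473 genes, 51.9% of those tested, so the class was a term in the model and within-class values are given where they matter.

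Genes of the mitochondrial genome stood higher with tamoxifen, and vessel and haemoglobin genes stood lower. The genes with a symbol of smallest p were Zfp366, Nudt14, Map2k3 and Notch3, all lower with tamoxifen, but no gene passed the test between the drugs. edgeR's quasi-likelihood test with Benjamini-Hochberg adjustment called 0 of 14411 genes (0%) at an adjusted p under 0.05, and the lowest adjusted p was 0.0636. At an unadjusted p under 0.05 stood 1466 genes (10.2%), of which 968 (6.72%) were higher and 498 (3.46%) lower with tamoxifen. The median log2 fold change over all genes, tamoxifen over anastrozole, was 0.0039, and 7393 genes (51.3%) had a fold above 0. The outcome turned on single libraries. Without tamoxifen library 2 the same test called 67 genes, 55 higher and 12 lower, without anastrozole library 4 it called 2, and without tamoxifen library 5 or anastrozole library 3 it called 1 each. DESeq2's Wald test on the same design called 96 genes, 91 higher and 5 lower, among the 4841 genes to which it gave an adjusted p.

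**Figure D1:**
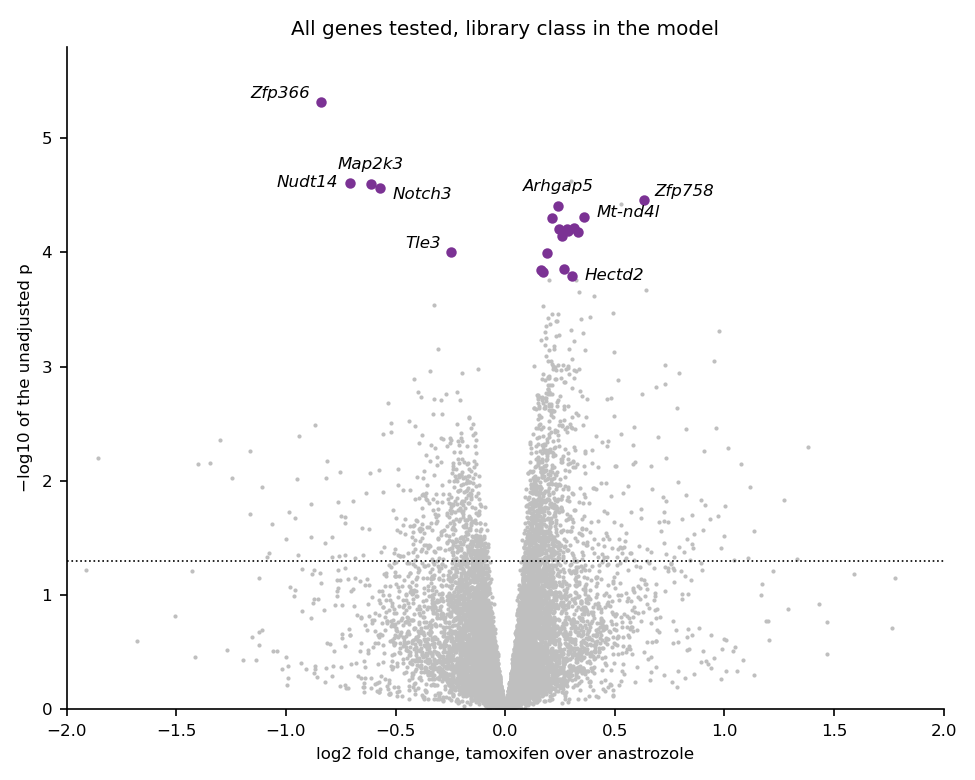
Each point is a gene, with the log2 fold change of tamoxifen over anastrozole on the x axis and −log10 of the unadjusted p on the y axis; the dotted line marks an unadjusted p of 0.05, and 18 genes beyond 2 in either direction lie outside the axis. Purple points are the 20 named genes of smallest p, of which 15 lie to the right of 0 and 5 to the left, Zfp366 being the highest point.

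The 20 genes with a symbol and the smallest p are described next as values. Because p chose them, their order and direction are no support for a difference. Of them, 15 stood higher and 5 lower with tamoxifen, and their adjusted p ran from 0.0636 to 0.101.

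The lower ones included a receptor cofactor, a vessel receptor and a signalling kinase. Zfp366, whose human counterpart is a corepressor bound by the estrogen receptor, was at 3.25, 4.32, 3.29, 3.16 and 4.06 CPM in the tamoxifen libraries, against 8.18, 7.23, 7.09, 3.90 and 7.59 CPM in the anastrozole libraries. Only anastrozole library 4 lay among the tamoxifen values, and the other 4 anastrozole libraries were above all of them. The log2 fold change was -0.84 ± 0.16 (SE, n = 5 each; edgeR adjusted p = 0.0636), with -1.03 among the libraries of high Rn7sl1 share and -0.63 among those of low share. With 1 of the 10 libraries left out at a time, the gene was called in 3 fits. These were without anastrozole library 4 (edgeR adjusted p = 0.000592), tamoxifen library 2 (adjusted p = 0.0273) and tamoxifen library 5 (adjusted p = 0.0307). Leaving out anastrozole library 4, which lay among the tamoxifen values, widens the gap by its choice. Tamoxifen libraries 2 and 5, at 4.32 and 4.06 CPM, were the highest of their group, so leaving out either widens it too. These 3 fits are therefore no support for a difference.

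Nudt14, which encodes a hydrolase of UDP-sugars, was the only 1 of the 20 whose groups did not overlap. It was at 4.44, 3.98, 3.29, 2.73 and 3.96 CPM with tamoxifen, against 5.79, 6.49, 5.63, 6.36 and 6.33 CPM with anastrozole, a log2 fold change of -0.71 ± 0.15 (edgeR adjusted p = 0.0636). Groups without overlap were seen at 71 of the 14411 genes (0.493%), 32 higher and 39 lower.

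Map2k3 encodes a kinase that activates p38 MAP kinases. Its level was 5.63, 6.47, 5.03, 5.03 and 5.54 CPM in tamoxifen libraries, against 10.8, 9.12, 6.15, 8.51 and 9.42 CPM in anastrozole libraries, and the log2 fold change was -0.61 ± 0.13. The groups overlapped at tamoxifen library 2 and anastrozole library 3. Tle3, a Groucho-family corepressor, averaged 45.6 ± 4.1 CPM with tamoxifen and 56.1 ± 5.6 CPM with anastrozole (SD, n = 5 each), a log2 fold change of -0.25 ± 0.056 (SE).

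Notch3, the Notch receptor of vascular smooth muscle and pericytes, was at 19.7, 30.2, 16.6, 18.3 and 14.7 CPM with tamoxifen, against 40.4, 38.9, 28.1, 18.9 and 31.8 CPM with anastrozole. Tamoxifen library 2 was the highest of its group and anastrozole library 4 the lowest of its own. The log2 fold change of -0.57 ± 0.12 stood at -0.69 without tamoxifen library 2 (edgeR adjusted p = 0.013), and without anastrozole library 4 the adjusted p was 0.00718. With 1 of the 10 libraries left out at a time, these were the 2 fits that called the gene. Each dropped the library nearest the other drug, so they are no support for a difference.

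The higher ones had smaller fold changes, between 0.16 and 0.36 on the log2 scale except for Zfp758. That zinc finger gene was at 10.9, 11.1, 22.4, 15.2 and 18.7 CPM in the tamoxifen libraries, against 6.92, 6.90, 12.2, 12.3 and 7.17 CPM in the anastrozole libraries, a log2 fold change of 0.63 ± 0.13. Within each class every tamoxifen library was above every anastrozole library.

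Eif5, a translation initiation factor, averaged 216 ± 47 CPM with tamoxifen and 173 ± 40 CPM with anastrozole (log2 fold change 0.21 ± 0.046, SE). Ipo7, an import receptor of the nuclear pore, differed by 0.25 ± 0.054, and Thoc2, a subunit of the mRNA export complex THO, by 0.27 ± 0.063. Ube3a, the ubiquitin ligase lost in human Angelman syndrome, differed by 0.26 ± 0.058, and the ubiquitin ligase Hectd2 by 0.31 ± 0.072. Fkbp3, a nuclear prolyl isomerase, averaged 75.2 ± 15.4 CPM with tamoxifen and 57.2 ± 10.6 CPM with anastrozole (0.29 ± 0.064). Tasor, a subunit of the HUSH silencing complex, differed by 0.28 ± 0.062 and Ergic2, of the secretory pathway, by 0.31 ± 0.069. Ahctf1, a nuclear pore assembly protein, Zfr and Zfp292, both zinc finger proteins, differed by 0.16, 0.19 and 0.17. Arhgap5, a GTPase-activating protein, averaged 270 ± 81 CPM with tamoxifen and 206 ± 62 CPM with anastrozole (0.24 ± 0.052).

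**Figure D2:**
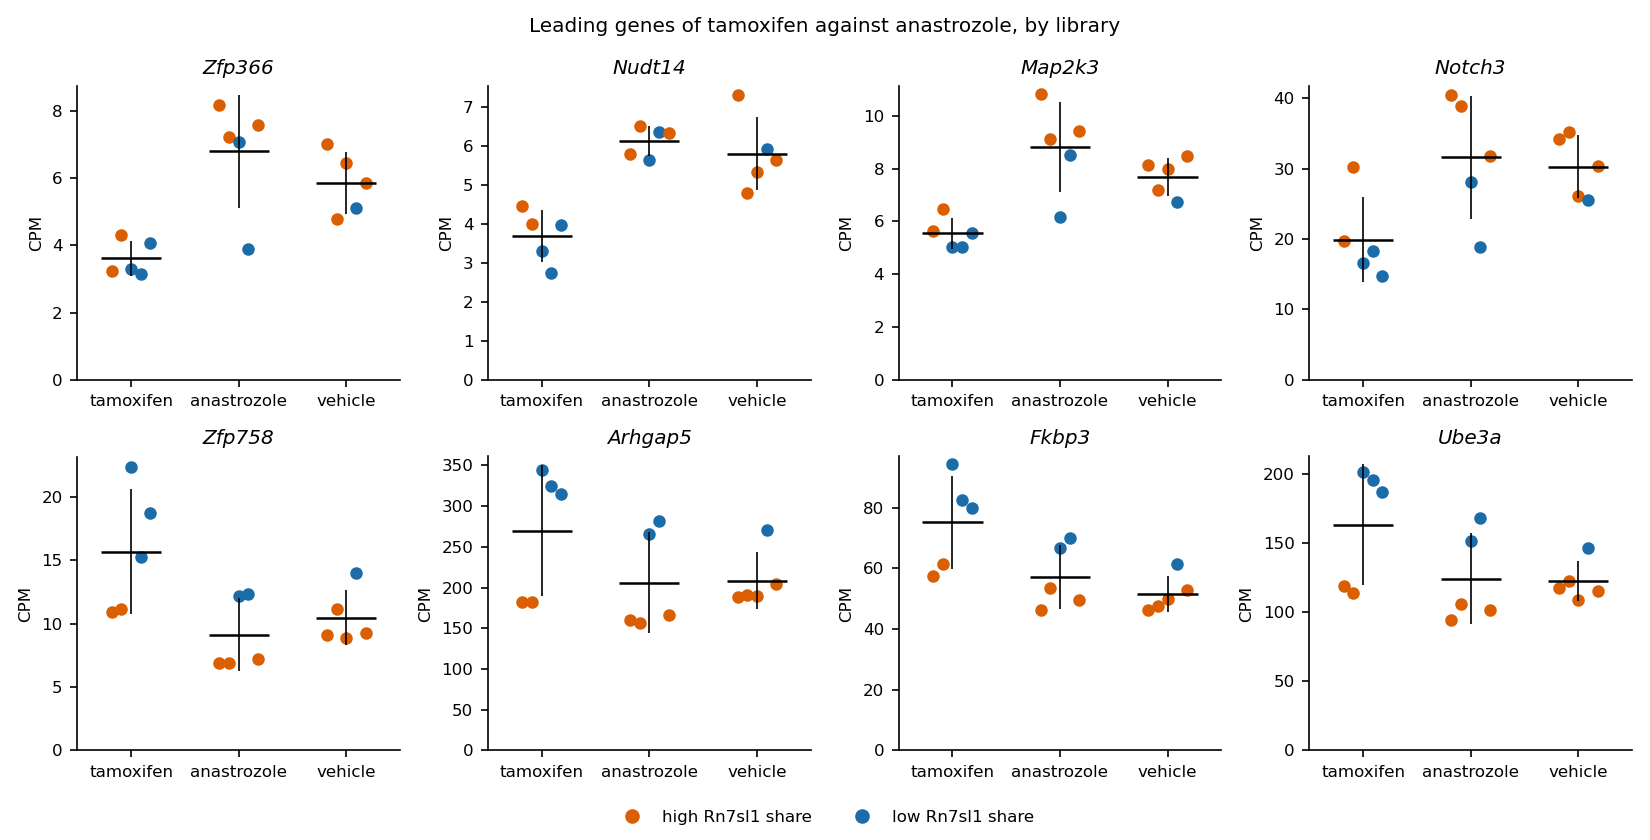
CPM of 8 of the 20 genes of smallest p in each of the 15 tamoxifen, anastrozole and vehicle libraries; dots are libraries coloured by Rn7sl1 class, and lines give the mean and SD of 5. Nudt14 with tamoxifen ends at 4.44 CPM, below every anastrozole library, while for Zfp758, Arhgap5, Fkbp3 and Ube3a the low-share libraries lie above the high-share libraries of the same drug.

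In the same model, libraries of low Rn7sl1 share were higher than those of high share for all 15 of the genes that stood higher with tamoxifen, by 0.13 for Mt-nd4l to 0.77 for Zfp758 on the log2 scale. They were lower for all 5 that stood lower, by -0.09 for Nudt14 to -0.53 for Notch3. The class difference was not called for Nudt14 (edgeR adjusted p = 0.61), Zfp366 (0.079), Mt-nd4l (0.074) and Map2k3 (0.057). Over all genes the classes differed at 51.9%. How many of all genes stood higher at low share was not counted, so the agreement cannot be called unusual. The drug groups were without overlap inside both classes, in the same direction, for 16 of the 20 genes, and over all genes 608 (4.22%) met that rule. The exceptions were Zfp366, Tasor, Cycs and Zfr. The 20 were chosen by p in these same libraries with class in the model. Their separation within classes therefore follows from the choice and is no support for a difference.

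Genes carried by the mitochondrial genome stood higher with tamoxifen. The list held all 13 protein genes; 0 passed the test, and at an unadjusted p under 0.05 stood 10 higher and 0 lower, against 6.72% and 3.46% of all genes. All 13 folds were above 0, with a median log2 fold change of 0.22 beside 0.0039 over all genes. Each of these genes was also higher in tamoxifen libraries 3, 4 and 5 than in tamoxifen libraries 1 and 2. The 13 thus moved together between libraries and are not 13 separate results. The median was 0.12 in libraries of high Rn7sl1 share, where 11 of 13 were positive, and 0.34 in those of low share. Together these genes took 4.94%, 5.07%, 7.77%, 6.98% and 6.94% of counts with tamoxifen, against 5.10%, 4.32%, 6.22%, 6.12% and 5.05% with anastrozole. The 2 tamoxifen libraries of high share lay among the anastrozole values, and the 3 of low share lay above all of them. Among the anastrozole values, 6.22% and 6.12% were the libraries of low share. In the same model, low share exceeded high share by 0.52 for Mt-nd4, 0.48 for Mt-nd2, 0.35 for Mt-co1 and 0.13 for Mt-nd4l (log2). Tamoxifen had 3 libraries of low share and anastrozole 2, so the raw percentages mix drug and class.

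Several of these genes encode subunits of complex I, which passes electrons from NADH to ubiquinone. Mt-nd4l was at 554, 609, 806, 664 and 708 CPM with tamoxifen, against 509, 445, 575, 501 and 516 CPM with anastrozole (log2 fold change 0.36 ± 0.078; edgeR adjusted p = 0.0636). Anastrozole library 3 alone exceeded a tamoxifen library. Mt-nd4, which overlaps Mt-nd4l on the same transcript so that reads can be shared, differed by 0.34 ± 0.082 (adjusted p = 0.118). Mt-nd2 and Mt-nd3, also of complex I, differed by 0.35 ± 0.10 and 0.34 ± 0.094, and Mt-nd5 and Mt-nd1 of the same complex by 0.25 ± 0.074 and 0.19 ± 0.081. Mt-atp8, of the ATP synthase, differed by 0.32 ± 0.10. The cytochrome c oxidase gene Mt-co1 differed less, by 0.14 ± 0.063. Mt-nd6, read from the other strand, stood at 0.17 ± 0.14 and at -0.13 among libraries of high share.

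The nuclear gene Cycs, for cytochrome c, was at 101, 84.1, 177, 173 and 150 CPM with tamoxifen, against 71.9, 84.6, 116, 132 and 85.8 CPM with anastrozole. Its log2 fold change was 0.33 ± 0.073, and tamoxifen libraries 1 and 2 lay within the anastrozole range. Processed copies of Cycs elsewhere in the genome can share its reads.

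Entries without a symbol lay outside the rule for named genes, and 2 are given here because of their values. The mitochondrial entry ENSRNOG00000030478 was at 961, 967, 786, 726 and 668 CPM with tamoxifen, against 659, 580, 552, 492 and 663 CPM with anastrozole, with no overlap. Its log2 fold change was 0.53 ± 0.11 (edgeR adjusted p = 0.0636), and the adjusted p was 0.000594 in a fit on the 10 libraries alone with class. The entry was called in 2 of 24 alternatives, and in 0 of the fits with 1 library left out. Vehicle libraries ran from 524 to 943 CPM, across values of both drugs. Entry ENSRNOG00000062127 averaged 8050 ± 1990 CPM with tamoxifen and 6042 ± 1576 CPM with anastrozole (0.30 ± 0.062).

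Vessel and blood genes stood lower with tamoxifen. Of 12 endothelial markers tested, 0 passed, and at an unadjusted p under 0.05 stood 0 higher and 4 lower, beside 6.72% and 3.46% of all genes. Of the 12 folds 11 were below 0, the exception being the transporter Slco1a2, beside 7018 of all 14411 genes. The median was -0.16, with -0.07 at high and -0.36 at low Rn7sl1 share. The 4 lower markers at that p were the angiopoietin receptor Tek (-0.29 ± 0.11), its relative Tie1 (-0.37 ± 0.14), the TGF-beta co-receptor Eng (-0.25 ± 0.098) and the VEGF receptor Kdr (-0.41 ± 0.19). Tie1 was at 8.99, 18.1, 8.32, 10.3 and 8.71 CPM with tamoxifen, against 19.01, 14.1, 13.1, 10.7 and 15.8 CPM with anastrozole. Tamoxifen library 2 exceeded all but 1 anastrozole library, and the other 4 tamoxifen libraries lay below all of them. Without it the endothelial median was -0.31, with 7 markers at an unadjusted p under 0.05 and 1 called. Tamoxifen library 2 had the highest mean level of these markers in its group, 4.53 on the log2 CPM scale. Leaving it out lowers the median by its choice, so these values are no support for a difference.

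The mural and meningeal list depended on that library to a greater degree. Among its 16 genes the pericyte genes Pdgfrb, the PDGF receptor, and Rgs5, a G protein signalling regulator, differed by -0.23 ± 0.094 and -0.23 ± 0.10, and 0 passed. The median of the list was -0.09, with 6 positive folds, against -0.58 and 0 positive folds without tamoxifen library 2. It was 0.02 without tamoxifen library 5, and within classes it was 0.35 at high and -0.37 at low Rn7sl1 share. In whole tissue, fewer vessel cells and less RNA per vessel cell cannot be told apart.

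Haemoglobin transcripts mark blood left in the tissue. Summed, they were at 61.2, 169, 78.5, 77.1 and 95.1 CPM with tamoxifen, against 131, 220, 222, 122 and 183 CPM with anastrozole. Tamoxifen library 2 was again the exception, and the other 4 lay below all anastrozole libraries. Hbb differed by -0.95 ± 0.45 and Hba-a2 by -0.88 ± 0.46 on the log2 scale. Haemoglobin genes have near-identical copies that can share reads, so the single genes are uncertain. Of 4 blood markers tested, 0 passed and all 4 folds were below 0, beside 7018 of all 14411 genes, and the median was -0.86. Choroid plexus markers had a median of -0.38 over 13 genes with none below an unadjusted p of 0.05, and the sign of that median changed between classes, to 0.40 at high and -1.25 at low share. Vessel values without tamoxifen library 2 are given above. A fit with a choroid plexus covariate called 0 genes, as the main fit did, so that count cannot tell whether choroid plexus bears on the vessel values. No fit took blood as a covariate. Which of these, if any, accounts for the vessel values was not tested.

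**Figure D3:**
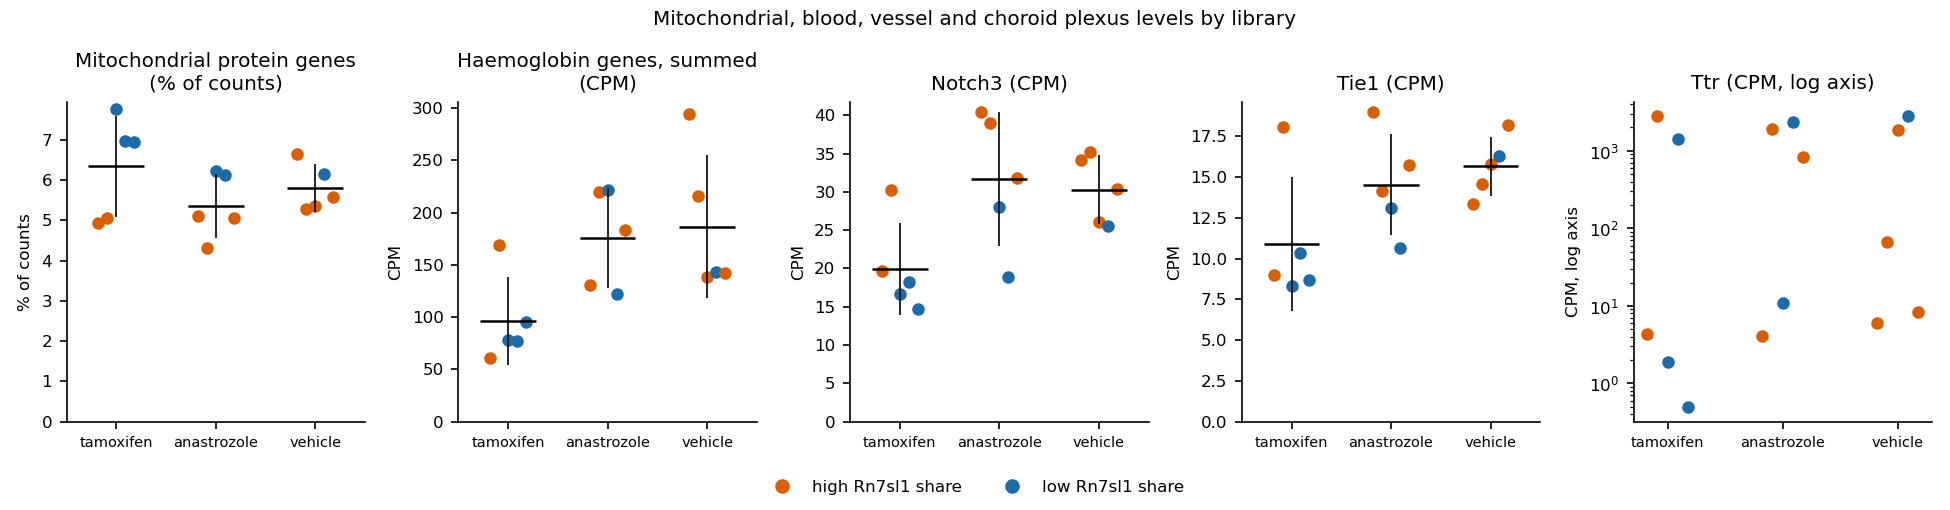
Percent of counts on the 13 mitochondrial protein genes, and CPM of summed haemoglobin genes, Notch3, Tie1 and, on a log axis, Ttr, in the tamoxifen, anastrozole and vehicle libraries; dots are libraries coloured by Rn7sl1 class, and lines give the mean and SD of 5 (none for Ttr). Tamoxifen library 2 is the upper dot of its group for haemoglobin (169 CPM), Notch3 (30.2 CPM), Tie1 (18.1 CPM) and Ttr (2770 CPM).

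No difference beyond the spread between libraries was found in the receptors and the enzyme that the drugs bind, and for genes of low counts the intervals are wide. Esr1, the estrogen receptor alpha gene, averaged 2.77 ± 0.45 CPM with tamoxifen and 2.38 ± 0.53 CPM with anastrozole, and the 95% interval of its log2 fold change was -0.35 to 0.79. Esr2, the beta receptor, differed by -0.33 ± 0.40 and Gper1 by -0.27 ± 0.43. Cyp19a1 was at 1.19, 2.49, 1.73, 0.72 and 0.99 CPM with tamoxifen, against 0.63, 0.66, 1.88, 1.74 and 1.13 CPM with anastrozole. Its fold was 0.19 ± 0.40, with opposite signs in the classes, 1.17 at high and -0.69 at low Rn7sl1 share. Pgr, the progesterone receptor and a textbook estrogen target, averaged 23.4 ± 1.6 CPM with tamoxifen and 21.6 ± 2.9 CPM with anastrozole, with an interval of -0.08 to 0.31.

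Of 13 steroid receptor and cofactor genes tested, 0 passed, and at an unadjusted p under 0.05 stood 1 higher and 2 lower, beside 6.72% and 3.46% of all genes. Steroid synthesis had 2 of 15 genes higher and 0 lower at that level, namely Hsd11b1, which regenerates active glucocorticoid (0.26 ± 0.10), and the oxysterol hydroxylase Cyp7b1 (0.21 ± 0.082). Estrogen-responsive genes had 2 of 18 higher and 1 lower, with a median of -0.01; the receptor cofactor Nrip1 stood at 0.17 ± 0.059.

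Genes of sterol synthesis were close between the drugs, although tamoxifen is known to bind late enzymes of that pathway. Early cholesterol genes had a median of -0.02 over 15 genes. At an unadjusted p under 0.05 stood 0 higher and 1 lower, the decarboxylase Mvd (-0.24 ± 0.12), beside 6.72% and 3.46% of all genes. Late sterol genes had a median of 0.02 over 11, with 0 higher and 1 lower, the sterol reductase Tm7sf2 (-0.26 ± 0.10). Ebp, the sterol isomerase, averaged 6.34 ± 0.67 CPM with tamoxifen and 6.12 ± 0.85 CPM with anastrozole. The reductase Dhcr7 differed by -0.03 ± 0.096, with an interval of -0.23 to 0.16. Tmem97, the sigma-2 receptor, stood at 0.18 ± 0.12. Of 13 oxysterol and lipid efflux genes 11 had a fold below 0, with a median of -0.10, and fatty acid synthase, Fasn, was the 1 lower gene at an unadjusted p under 0.05 (-0.15 ± 0.054). Of 22 lysosomal genes the autophagy receptor Sqstm1 was the 1 lower gene (-0.14 ± 0.046), and the median was -0.02. Gpnmb, a glycoprotein of stressed lysosomes, stood at 0.30 ± 0.15.

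Chaperone, glucocorticoid and clock genes gave a few members with small p. Of 21 heat shock and unfolded protein genes 4 were higher and 1 lower at an unadjusted p under 0.05, beside 6.72% and 3.46% of all genes. The median was 0.10 at high Rn7sl1 share, with 18 positive folds, and -0.0044 at low share, with 10. Hsp90aa1, the inducible Hsp90 that holds steroid receptors ready for hormone, averaged 1168 ± 243 CPM with tamoxifen and 932 ± 194 CPM with anastrozole (log2 fold change 0.22 ± 0.060; edgeR adjusted p = 0.186). Hsp90b1, of the endoplasmic reticulum, differed by 0.16 ± 0.059. Among 16 glucocorticoid-responsive genes 1 was higher and 2 lower. The receptor Nr3c1 differed by 0.18 ± 0.055, while Ddit4, an inhibitor of mTORC1 that glucocorticoids induce, averaged 34.7 ± 10.2 CPM with tamoxifen and 49.7 ± 11.8 CPM with anastrozole (-0.41 ± 0.12; edgeR adjusted p = 0.197).

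Circadian genes had 0 of 19 higher and 3 lower at an unadjusted p under 0.05, beside 6.72% and 3.46% of all genes, with a median of -0.05. The median was -0.18 at high Rn7sl1 share, with 1 of 19 folds positive, and 0.06 at low share, with 11 of 19 positive. Ciart, a clock repressor, was at 3.79, 2.99, 3.29, 5.89 and 3.56 CPM with tamoxifen, against 5.92, 4.44, 5.95, 6.36 and 6.19 CPM with anastrozole (-0.56 ± 0.18). Tamoxifen library 4 lay among the anastrozole values, and the other 4 lay below all of them. Per1, a clock gene that glucocorticoids also induce, differed by -0.29 ± 0.10. The labels give no time of day for tissue collection. None of 19 immediate-early genes reached an unadjusted p under 0.05. The activity genes Fos and Nr4a1 stood at -0.45 ± 0.43 and -0.32 ± 0.26, and the list median was -0.25 at high and 0.08 at low Rn7sl1 share. Among 20 glutathione and oxidative stress genes the transferase Gstp1 was the 1 lower gene (-0.25 ± 0.083).

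Neurotransmitter receptor genes held no called member. Glutamate receptors had 4 of 19 higher and 1 lower at an unadjusted p under 0.05, beside 6.72% and 3.46% of all genes, with a median log2 fold change of 0.08; 14 of 19 folds were positive at high and 13 at low Rn7sl1 share, with 1 and 5 genes at that p. The AMPA receptor subunit Gria2, which sets calcium permeability, averaged 1056 ± 241 CPM with tamoxifen and 855 ± 176 CPM with anastrozole (0.20 ± 0.067). The kainate receptor subunit Grik2 differed by 0.16 ± 0.063. GABA-A receptor subunits had 2 of 12 higher and 0 lower, 11 positive folds and a median of 0.10; within classes the median was 0.04 with 7 positive folds at high share and 0.18 with 12 at low share. Gabra5, the extrasynaptic alpha subunit typical of hippocampus, averaged 144 ± 18 CPM with tamoxifen and 121 ± 13 CPM with anastrozole (0.21 ± 0.064). The drug groups overlapped for each of these 3 genes.

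Cell type and region lists other than those of vessels, meninges, blood and choroid plexus had medians between -0.06 and 0.08. Markers of dentate granule cells, of CA1, of CA2 and CA3, and of interneurons had no gene below the unadjusted p of 0.05, as did astrocyte, microglia, thalamus and subiculum markers, neuropeptide genes and interferon genes. Of 9 adult neurogenesis genes 1 was higher and 2 lower at that p, beside 6.72% and 3.46% of all genes. Dcx, a microtubule protein of young neurons, averaged 50.8 ± 13.9 CPM with tamoxifen and 40.2 ± 4.2 CPM with anastrozole, with folds of 0.01 at high and 0.41 at low share. Top2a, a topoisomerase of dividing cells, was lower by -1.35 ± 0.47 at 0.43 ± 0.19 CPM with tamoxifen and 1.09 ± 0.65 CPM with anastrozole. At that depth the gene rests on few counts. Myelin genes had 1 of 16 higher, the N-acetylaspartate hydrolase Aspa (0.34 ± 0.13). Oligodendrocyte precursor genes had 1 of 12 lower, Gpr17, a receptor of newly forming oligodendrocytes (-0.37 ± 0.14), at -0.11 ± 0.18 at high and -0.67 ± 0.19 at low share. The growth factor Ptn stood at 0.13 ± 0.054 and the kinase Prkca, which tamoxifen is known to inhibit, at 0.17 ± 0.061.

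**Figure D4:**
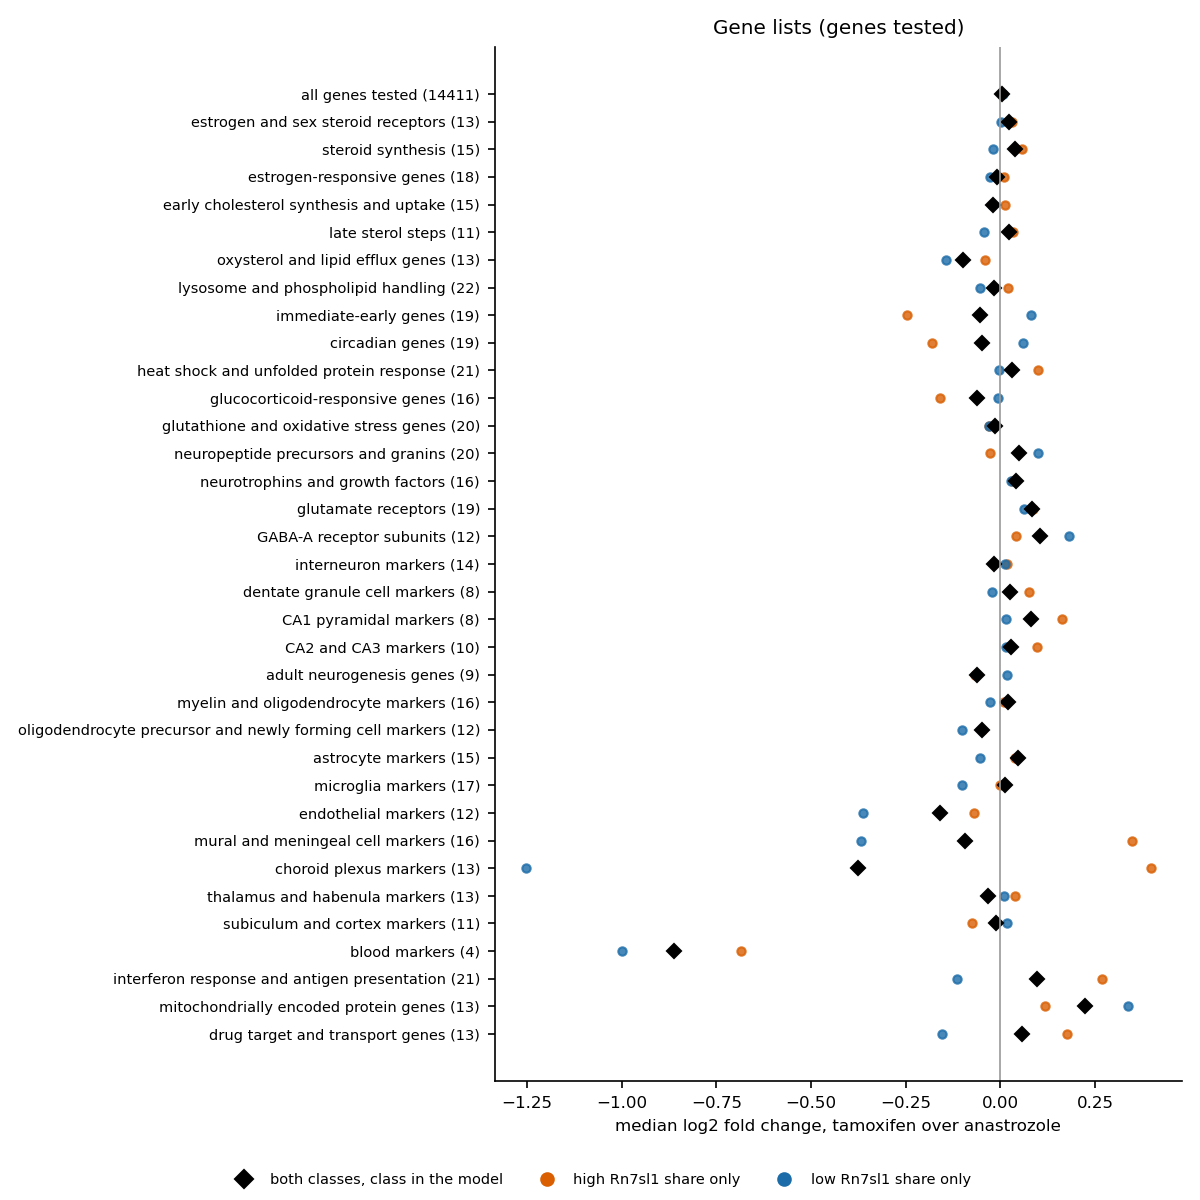
Median log2 fold change of tamoxifen over anastrozole (x axis) for all genes and for each of the 34 gene lists (y axis, number of genes tested in brackets); diamonds use both Rn7sl1 classes with class in the model, and coloured dots use libraries of high or of low share only. Mitochondrial genes lie to the right of 0 and blood markers to the left in both classes, while mural and meningeal and choroid plexus markers lie on opposite sides of 0 in the classes.

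Set against vehicle, neither drug had a called gene. edgeR called 0 of 14411 (0%) for tamoxifen, where 1210 (8.4%) had an unadjusted p under 0.05, and 0 (0%) for anastrozole, where 1088 (7.55%) did. These contrasts share the vehicle libraries with each other, and each drug's libraries with the comparison that chose the genes, so the values show only where each drug lay. Zfp366 stood at -0.58 ± 0.16 for tamoxifen and 0.26 ± 0.15 for anastrozole, each over vehicle on the log2 scale. Nudt14 stood at -0.60 ± 0.15 for tamoxifen and 0.10 ± 0.14 for anastrozole, and Tle3 at -0.24 ± 0.058 for tamoxifen and 0.01 ± 0.055 for anastrozole.

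Among the genes that stood higher with tamoxifen than with anastrozole, Mt-nd4l stood at 0.08 ± 0.082 for tamoxifen and -0.28 ± 0.078 for anastrozole over vehicle, and Arhgap5 at 0.04 ± 0.054 for tamoxifen and -0.20 ± 0.052 for anastrozole. Zfp758 was at 0.24 ± 0.14 for tamoxifen and -0.39 ± 0.14 for anastrozole. Fkbp3 was at 0.32 ± 0.067 for tamoxifen and 0.04 ± 0.065 for anastrozole, and Hectd2 at 0.28 ± 0.076 for tamoxifen and -0.02 ± 0.074 for anastrozole. Only 1 of the 5 vehicle libraries was of low Rn7sl1 share, so class is thinly filled there.

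**Figure D5:**
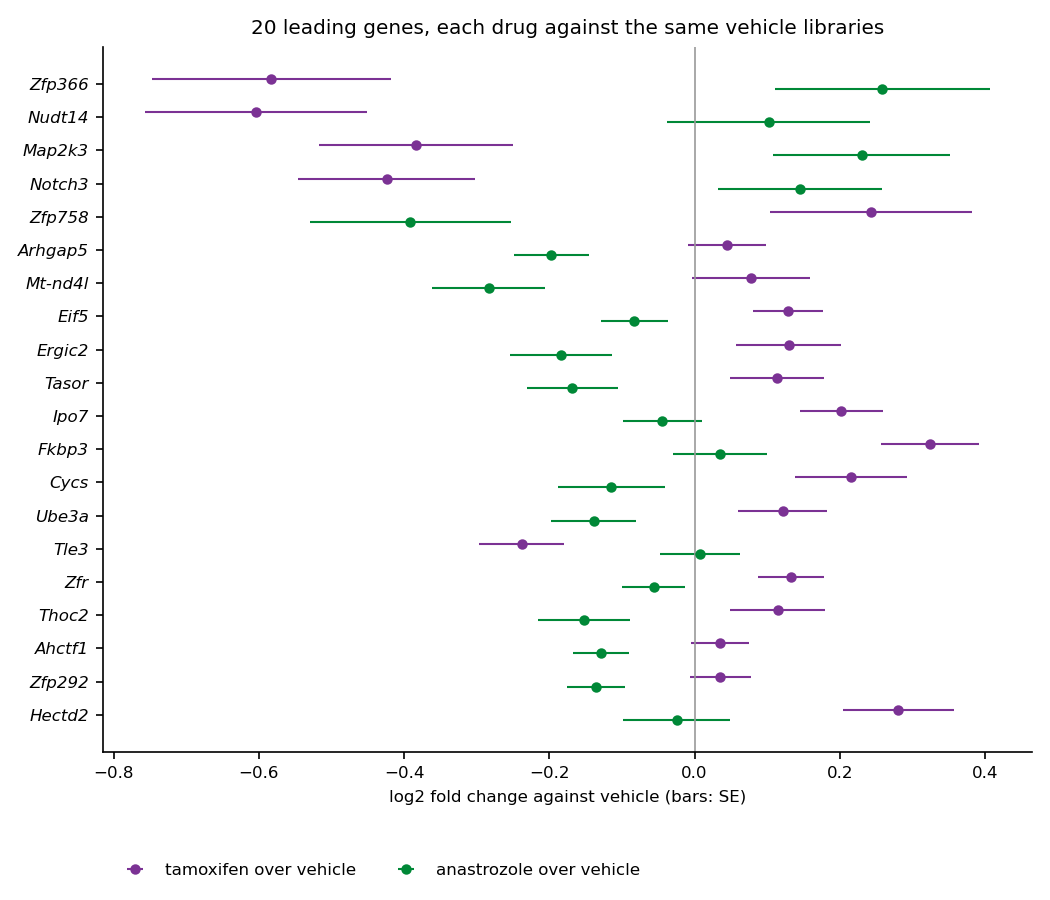
Log2 fold change over vehicle (x axis) of the 20 genes of smallest p between the drugs, for tamoxifen (purple) and anastrozole (green), with bars of 1 SE. The drugs share the same 5 vehicle libraries; Nudt14 is at -0.60 for tamoxifen and 0.10 for anastrozole, and Mt-nd4l at 0.08 for tamoxifen and -0.28 for anastrozole.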

How the data were processed

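RNA of rat hippocampus was sequenced from stranded poly(A) libraries, per the labels' protocols. Salmon was the authors' quantifier, per the submitters' processing notes. The gene table they deposited holds expected counts, all whole numbers, so no rounding was needed. A normalized signal made with DESeq2, per the same notes, was deposited too. Its ratio to the counts varies with both the gene and the library, and it served only as an alternative scaling. Genome build, annotation and tool versions are not given in the sources used here, so no positions are printed.

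Counts were tested in edgeR 4.0.16 (R 4.3.3). All 35 libraries of 7 groups entered 1 model with the Rn7sl1 class as a covariate, after TMM scaling and the filterByExpr filter on groups. The test was the quasi-likelihood F-test in its robust form. Of 15059 entries 14411 were tested, 13458 of them with a symbol. P-values were adjusted by Benjamini-Hochberg over all tested genes, with a threshold of 0.05. CPM values use TMM-scaled totals, SD is between libraries, SE comes from the fold and its F statistic, and intervals have 95% confidence. The scripts were tested on simulated data. The common biological coefficient of variation was 0.122. Pairs of libraries of a group differed by 3.83 to 35.8 times counting error (chi-squared per degree of freedom), more than re-sequencing of 1 library would give; whether any came from 1 animal is not given in the labels. Log2 CPM levels of lists use a prior count of 2.

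Since no gene was called, the rule named the 20 genes of smallest p with a symbol and at least 1 CPM, the 2 members of smallest p of each of 34 lists, and fixed receptor, aromatase and sterol genes; a choice of these is printed. Certain genes are not reported here. Eng, Kdr, Mt-nd1, Mt-nd2, Mt-nd3, Mt-nd5, Mt-nd6, Mt-co1, Mt-atp8, Slco1a2 and the entries without a symbol were named after their values were seen. The comparison, the class, the members and the lists were chosen with earlier results of these data known. Of the symbols, 13091 matched RefSeq. Alternatives covered the class term, the libraries fitted, scaling, filter, tool (DESeq2 1.42.0), tissue covariates and each library left out.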

Additional observations from a re-analysis of the deposited data

Results flagged for a closer look

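Over 160 groups of 5 libraries looked at (2 groups for each of the named genes), 6 held a library far from the other 4 by Dixon's criterion, which flags about 1 group in 20 by chance. Tamoxifen library 2 was the high one for Tie1, at 18.1 CPM against 8.32 to 10.3 CPM in the other tamoxifen libraries, and for Hba-a2, at 35.8 CPM against 15.3 to 20.6 CPM. Zfp366 in anastrozole library 4 was at 3.90 CPM, against 7.09 to 8.18 CPM in the other anastrozole libraries. Ciart was at 5.89 CPM in tamoxifen library 4, against 2.99 to 3.79 CPM in the others of that drug, and at 4.44 CPM in anastrozole library 2, against 5.92 to 6.36 CPM. Gpnmb was at 5.29 CPM in anastrozole library 1, against 8.999 to 10.2 CPM in the other anastrozole libraries.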

How the results depend on the processing

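The count of 0 called genes did not hold in every setting. It became 1 (0 higher, 1 lower, Zfp366) without the class term, 2 (0 higher, 2 lower, Notch3 and Zfp366) with the Rn7sl1 share as a continuous term, and 1 (1 higher, 0 lower, the mitochondrial entry ENSRNOG00000030478) on the 10 libraries alone with class. It became 16 (12 higher, 4 lower) with a thalamus covariate and 96 (91 higher, 5 lower) in DESeq2. Leaving out 1 library at a time gave 0 to 67 calls, with 0 to 55 higher and 0 to 12 lower. In a setting added after the data were seen, on libraries with Ttr under 100 CPM, 84 genes were called (48 higher, 36 lower), but it holds 3 tamoxifen and 2 anastrozole libraries. The remaining settings gave 0 calls. All 20 genes of smallest p kept their sign in all 24 alternatives. They were chosen by p in the main fit and the alternatives reuse its libraries, so this is no support for a difference. Zfp366 was called in 7 of the alternatives, including the 3 fits with 1 library left out that are described above.

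Signs turned in some setting for 8 genes. Not all were low or near-equal, since Fos stood at -0.45 in the main fit, and Mt-nd6 at 0.17 with 175 CPM for tamoxifen and 135 CPM for anastrozole. At low Rn7sl1 share Fos was at 0.18 and Cyp19a1 at -0.69; at high share Ebp was at -0.0267, Dhcr7 at 0.0343 and Mt-nd6 at -0.13. With the authors' factors Esr1 was at -0.0028. On libraries with Ttr under 100 CPM Pgr was at -0.11 and Cyp19a1 at -0.0463. With 1 library left out, Gper1 ran from -0.576 to 0.0206, Cyp19a1 from -0.15 to 0.43 and Dhcr7 from -0.0804 to 0.0303. The cause was not tested. Genes near 1 CPM, such as Esr2, Gper1 and Cyp19a1, are limited by depth. No paired analysis was possible because the library titles carry no number shared between the groups.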
